A study of Drosophila melanogaster with 32 samples.

Results

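FMRP and Hrp48 HyperTRIBE were compared by the edited sites that the fusions left on RNA in S2 cells, a line derived from Drosophila embryos that resembles blood cells. FMRP, the product of Fmr1, and Hrp48, the product of Hrb27C, had each been joined to the ADAR catalytic domain with the E488Q change, a deaminase acting on RNA, the form of the method called HyperTRIBE. The comparison took 3 of the 32 samples of the series, FMRP HyperTRIBE replicate 1 and Hrp48 HyperTRIBE replicates 1 and 2. It left out every site that either library of the E488Q catalytic domain without an RNA-binding protein (the deaminase alone) listed. Those libraries held 13 and 459 sites, 464 positions in all. A second FMRP replicate was not analysed here. In all 3 samples, per the labels, the plasmid was transfected transiently, the fusion was induced with copper sulfate (CuSO4), sorted cells gave the RNA, and poly(A) RNA was sequenced. The labels give neither the amount of each fusion protein nor the origin of the replicates, and the spread between the 2 Hrp48 libraries may be technical. FMRP had 1 library, so the values are a description of these libraries and no test was made between the constructs.

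A deaminase fusion converts adenosine to inosine in the transcripts that its RNA-binding protein contacts, and inosine is read as guanosine in the sequence. FMRP is a KH-domain protein that represses translation, known from the fragile X syndrome gene and, in mammalian brain, for binding along the coding regions of many messenger RNAs. Hrp48 is an hnRNP protein with RNA recognition motifs, known in flies for roles in splicing and in translational control through the 3′ UTRs of its targets.

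A site is a position listed by the authors with at least 20 reads and at least 10% of reads edited, the lowest values seen in the files; an unlisted position may have lacked reads or editing. After removal of 121 FMRP sites and of 172 and 169 Hrp48 sites, FMRP HyperTRIBE held 4573 sites in 1978 genes. The Hrp48 libraries held 19534 sites in 4030 genes and 22634 sites in 4751 genes. Median coverage at these sites was 31 reads with FMRP and 33 and 36 reads with Hrp48, and all listed sites together held 177356, 778608 and 969823 reads. FMRP thus listed 0.217 times as many sites as the mean Hrp48 library. It listed 2.4 sites per gene, against 5.03 and 4.94, and 49.7% of its genes had a single site, against 23.4% and 24.2%. The headers of the files place FMRP in library set 05 and the Hrp48 replicates in sets 02 and 03, and the construct cannot be told apart from the set. Of the hemocyte markers, 11 of 15 held sites in any of the 3 libraries and 8 with FMRP, led by the laminin genes LanA (11 sites) and LanB1 (4 sites). The markers srp, ush and eater held sites with Hrp48 only, and Hml, NimC1, Pxn and He held none in any of the 3 libraries. Of 10 neuronal markers, brp held 1 site, in Hrp48 replicate 2, and none of 10 muscle and fat body markers was listed.

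The first comparison asked which genes each fusion marked. Most genes with FMRP sites also held Hrp48 sites, whereas many genes of Hrp48 held none with FMRP. Of the 1978 FMRP genes, 1707 were in both Hrp48 libraries (86.3%, Wilson 95% interval 84.7 to 87.7%), and 38 were in neither (1.92%, 1.40 to 2.63%). In the other direction, 1707 of the 3675 genes of both Hrp48 libraries held an FMRP site (46.4%, 44.8 to 48.1%). Over all 5144 genes listed in any of the 3 libraries, 71.4% were in both Hrp48 libraries and 38.5% held an FMRP site. Between the Hrp48 libraries, 91.2% of the replicate 1 genes were in replicate 2, and 77.4% of the replicate 2 genes were in replicate 1. With the Hrp48 libraries reduced to as many of their most edited sites as FMRP listed, the first share was 49.5%. The FMRP list was kept whole, weakly edited sites included, so this reduction could only lower the share. The intervals cover counting error only and treat genes as independent.

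Site numbers per gene were more alike between the Hrp48 libraries than between FMRP and either of them. Across the 5144 genes listed in any of the 3 libraries, site numbers in the Hrp48 replicates correlated with Pearson's r of 0.81 (Spearman's rho 0.67), and those of FMRP with Hrp48 with r of 0.39 and 0.37 (rho 0.37 and 0.38). These are descriptions across genes, which share each library's depth and are not independent replicates.

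Several of the genes with most FMRP sites encode ubiquitin ligases. The gene poe (2L, 8054528 to 8068340 in the dm3 build, here and below the span of the listed sites), a fly relative of the ubiquitin ligase UBR4, held 27 FMRP sites and 8 in each Hrp48 library. Rme-8, an endosomal J-domain protein gene on 2R, held 22, against 17 and 25. CG5604 on 2L (current symbol Ufd4), a ubiquitin ligase gene, held 21, against 23 and 23. CG7518 (3R, 8825176 to 8833908) held 20 FMRP sites and 6 and 7 Hrp48 sites. For poe and CG7518 the FMRP library lay above both Hrp48 libraries, and for Rme-8 and CG5604 it lay within or just below them.

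Dhc64C, the heavy chain of cytoplasmic dynein (3L, 4807806 to 4822144), held 18 FMRP sites against 4 and 6. The HECT ubiquitin ligase gene hyd (3R, 5541076 to 5549725) also held 18, against 4 and 3. In faf, a deubiquitinase gene on 3R, the 18 FMRP sites stood against 35 and 25 with Hrp48. Not1, the scaffold of the CCR4-NOT deadenylase, held 16 FMRP sites and 19 and 16 Hrp48 sites. The remaining pair of the 10 genes with most FMRP sites were CG9153 (current symbol Herc4), with 15 against 9 and 8, and tud, a founder of the Tudor domain family, with 15 against 28 and 14.

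Genes were called FMRP-leaning when they held 3 or more FMRP sites and more of them than either Hrp48 library, and 107 of the 5144 genes met this (2.08%). The 10 with the largest excess were poe, hyd, CG7518, Dhc64C, Prp8, LanA, Aats-glupro, PI4KIIIalpha, l(3)72Ab and CG9153. Prp8, the central spliceosome protein, held 12 FMRP sites against 3 and 3, and l(3)72Ab (current symbol Brr2), a spliceosomal helicase, held 14 against 8 and 8. LanA, the alpha chain of laminin, held 11 against 2 and 1. Aats-glupro, the glutamyl-prolyl-tRNA synthetase (current symbol GluProRS), held 11 against 4 and 1, and PI4KIIIalpha, a phosphatidylinositol 4-kinase, 13 against 6 and 3. Neither Hrp48 library listed 24 of the 27 FMRP sites in poe, 16 of the 18 in hyd, 14 of the 20 in CG7518, 13 of the 18 in Dhc64C, 10 of the 12 in Prp8, 9 of the 11 in LanA, 8 of the 11 in Aats-glupro, 12 of the 13 in PI4KIIIalpha, 7 of the 14 in l(3)72Ab and 7 of the 15 in CG9153. The share over all FMRP sites was 30.7%, and these genes were chosen by an FMRP excess, so the counts are a description.

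Median editing at the FMRP sites of these genes ran from 11.8% in CG9153 and 12.3% in LanA to 16.9% in CG7518 and Dhc64C. The median over all FMRP sites was 14.9%. The median was 14.7% in poe on a median of 32 reads, 15.8% in hyd on 27 reads and 16.9% in Dhc64C on 33.5 reads. Coverage at the Hrp48 sites of the same genes was close to that (medians of 32.5 and 28.5 reads in poe, 35.5 and 31 in hyd, and 29.5 and 34.5 in Dhc64C). Few of the sites in these genes were deep. With 50 or more reads, LanA kept 8 FMRP sites against 2 and 1, and poe 2 against 1 and 2, but hyd had 0 against 0 and 1, Prp8 1 against 1 and 2, CG7518 0 against 2 and 2, and CG9153 0 against 0 and 7. The direction therefore turned in hyd, Prp8, CG7518 and CG9153. Aats-glupro was at 1 against 0 and 1, and Dhc64C, PI4KIIIalpha and l(3)72Ab had no such site in any library. LanA was the 1 gene of the 10 that still leaned to FMRP. The FMRP-leaning count fell to 14, of which 10 were among the 107. Of the 107 genes, 35 were past the higher Hrp48 library by 1 site, and a further 34 genes with 3 or more FMRP sites were level with it. The count was 41 at 20% or more edited, 169 without Hrp48 replicate 2, and 441 with the Hrp48 lists reduced to the number of FMRP sites. That reduction kept the FMRP list whole, so the count could only rise. Some FMRP-leaning genes overlap and share their sites, among them CG9865, CG42379, CG42380 and CG42381, each with 7 FMRP sites; without sites of several genes the count was 103.

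**Figure D1:**
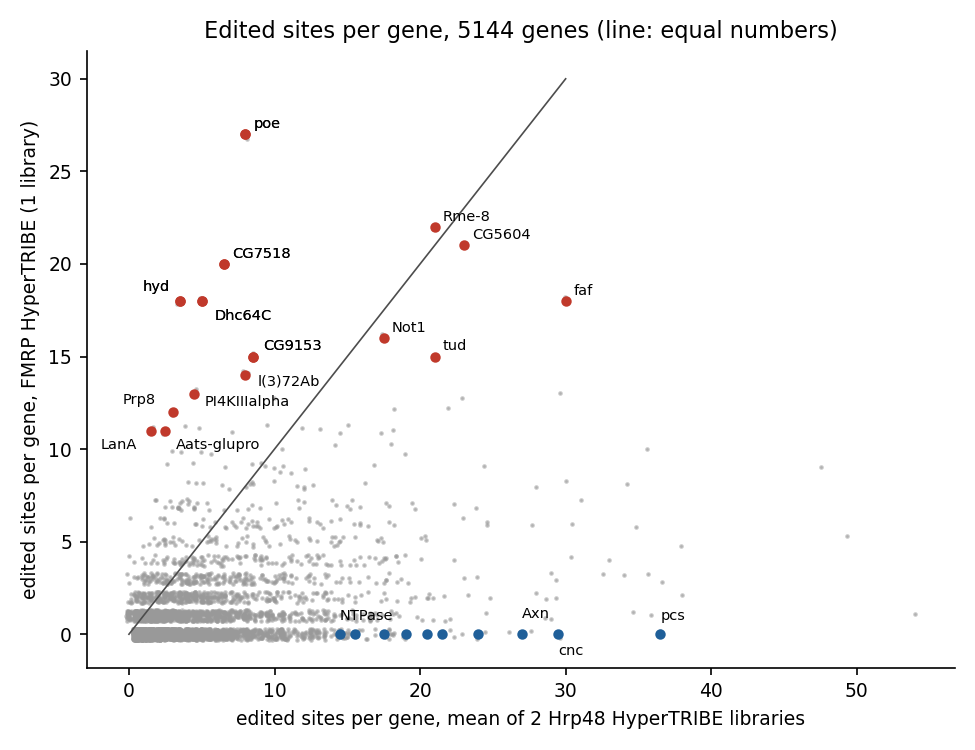
Each point is 1 of 5144 genes, with the number of edited sites in the FMRP library on the y axis and the mean number in the 2 Hrp48 libraries on the x axis (small random offsets separate grey points). Red points are the genes with most FMRP sites or the largest FMRP excess, led by poe at 27 against 8, and blue points are the 10 genes without FMRP sites that held most sites common to both Hrp48 libraries.

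Hrp48-leaning genes, with 3 or more sites in each Hrp48 library and no FMRP site, numbered 853 (16.6% of the 5144). This was above the FMRP-leaning count except with the Hrp48 lists reduced to the number of FMRP sites. There 95 leaned to Hrp48 and 441 to FMRP, in a setting that could only lower the first count and raise the second. The gene pcs (2R, 10868877 to 10878727), encoding an inhibitor of JNK signalling, led them with 38 and 35 sites. PGAP3, which encodes a GPI-anchor remodelling enzyme, held 23 and 25, and ImpL2, a secreted antagonist of insulin signalling, 23 and 18. Axn, the Wnt pathway scaffold Axin, held 29 and 25, and cnc, the fly relative of the stress regulator Nrf2, 33 and 26. The others were Cpr (17 and 14), encoding cytochrome P450 reductase, fwd (18 and 25), a phosphatidylinositol 4-kinase gene, CG5746 (19 and 19), NTPase (15 and 14) and Rab1 (18 and 17), a GTPase of transport from the endoplasmic reticulum to the Golgi.

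Several of these sites were both strongly edited and well covered with Hrp48. In NTPase the highest site (2L, 2881084) was edited at 58.0% and 57.3% on 69 and 75 reads, and in Cpr (2L, 6346064) at 61.5% and 48.8% on 65 and 84 reads. In Rab1 (3R, 17092197) it was at 41.1% and 40.4% on 56 and 57 reads, and in pcs (2R, 10877882) at 57.1% and 45.5% on 49 and 44 reads. None of these positions was listed with FMRP. Among these 10 genes, chosen for having no FMRP site, ImpL2, Cpr, NTPase, Rab1 and pcs held between 9 and 18 sites with 50 or more reads in each Hrp48 library. CG5746 held 0 and 6 such sites, cnc 1 and 0, and PGAP3, Axn and fwd none. Coverage of these genes in the FMRP library cannot be read from a list without sites. The Hrp48-leaning count was 259 at 50 or more reads, 383 at 20% or more edited and 1365 without Hrp48 replicate 1. Of the 411 genes with 10 or more sites in each Hrp48 library, 119 held no FMRP site (29.0%).

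The genes of the constructs held fewer sites with FMRP than with Hrp48. Fmr1 held 1 FMRP site, at 11.4%, against 11 and 14 Hrp48 sites, and neither Hrp48 library listed the FMRP site. Hrb27C held 4 FMRP sites, all of them listed in both Hrp48 libraries, against 16 and 18, and Adar held 6 against 16 and 10. Reads from a plasmid and from the chromosomal gene cannot be told apart for Fmr1 in the FMRP library, for Hrb27C in the Hrp48 libraries or for the catalytic domain of Adar in any library.

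Gene groups, chosen with earlier results of these data known, were then described by their counts. Over all 5144 genes, 38.5% held an FMRP site, 71.4% held sites in both Hrp48 libraries, 2.08% leaned to FMRP and 16.6% leaned to Hrp48. FMRP listed 21.7 sites for every 100 of the mean Hrp48 library, with a site counted for each gene it overlaps. The shares also move with how many reads a group's transcripts had, and the part of RNA level in them was not tested.

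Among large ubiquitin ligases and deubiquitinases, 19 of 22 listed genes held FMRP sites and 21 held sites in both Hrp48 libraries, at 55.6 FMRP sites per 100 Hrp48 sites. In this group poe, hyd, Ubp64E (10 against 3 and 4) and Bruce (7 against 3 and 3), an inhibitor-of-apoptosis protein with ubiquitin-conjugating activity, leaned to FMRP. These were 4 of the 22 genes, against 2.08% of all genes. Since poe and hyd were already among the 10 genes with the largest FMRP excess, the count is a description. With 50 or more reads, poe stood at 2 against 1 and 2 and hyd at 0 against 0 and 1. Su(dx), a Nedd4-family ligase of the Notch pathway, was the 1 gene of the 22 that leaned to Hrp48 (0 against 13 and 13), against 16.6% of all genes. Among giant cytoskeletal genes 12 of 18 held FMRP sites and 16 held sites in both Hrp48 libraries, at 78.6 per 100. Besides Dhc64C, the non-muscle myosin heavy chain gene zip (11 against 4 and 6) leaned to FMRP. So did the spectrin genes kst (9 against 2 and 3) and beta-Spec (8 against 7 and 2), but not the spectrin gene alpha-Spec (6 against 6 and 12). Of the 18 genes, 4 leaned to FMRP and 3 to Hrp48, against 2.08% and 16.6% of all genes. Dhc64C was likewise among the 10 genes with the largest FMRP excess. The integrin gene mys (0 against 7 and 5), Fhos (0 against 8 and 10) and stai (0 against 4 and 4) leaned to Hrp48, and the talin gene rhea held 7 against 22 and 17.

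Among RNA helicase genes, 17 of 18 held FMRP sites and 13 held sites in both Hrp48 libraries, at 53.2 per 100. Upf1, the helicase of nonsense-mediated decay, leaned to FMRP with 7 against 4 and 4. Dcr-2, the Dicer of the small interfering RNA pathway, held 7 against 14 and 9, and mle, the helicase of dosage compensation, 4 against 4 and 6. No gene of the 18 leaned to Hrp48, against 16.6% of all genes, and of the 18 Upf1 alone leaned to FMRP, against 2.08%. The list did not hold every helicase gene. The FMRP-leaning spliceosomal helicase gene l(3)72Ab (14 against 8 and 8) was outside it, and other helicase genes outside it were not counted. Among translation factors 14 of 25 held FMRP sites, at 48.1 per 100. Of the 25 genes, 2 leaned to FMRP, against 2.08% of all genes, namely eIF3-S10 (7 against 4 and 4) and NAT1 (5 against 3 and 2). The initiation factor kinase gene Lk6 held 11 against 16 and 13. Leaning to Hrp48 were 6 genes, against 16.6% of all genes, among them the translational repressors 4EHP (0 against 17 and 4) and Paip2 (0 against 9 and 8).

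Among deadenylases and translational repressors, 7 of 14 genes held FMRP sites, against 38.5% of all genes, at 34.3 per 100. Of the 14 genes, 1 leaned to FMRP and 3 to Hrp48, against 2.08% and 16.6% of all genes, and the list is short. Besides Not1, Not3 (5 against 6 and 12) and the eIF4E-binding protein gene cup (3 against 12 and 9) held sites in all 3 libraries, whereas pum (0 against 26 and 23) and brat (0 against 11 and 12), which encode RNA-binding repressors, leaned to Hrp48. The list also took in Rcd1 (6 against 11 and 10), which is not the deadenylase subunit gene Rcd-1 (0 against 3 and 3). PAN2, a poly(A) nuclease gene, was the FMRP-leaning member at 3 against 2 and 0.

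Genes tied to FMRP itself were then counted. None of them was FMRP-leaning, against a background of 2.08%, which for lists this short is no difference. Of 10 listed genes of proteins known to work with FMRP, 8 held FMRP sites, at 30.9 per 100, led by Sra-1 (8 against 11 and 12), the fly CYFIP, and gw (6 against 16 and 20), the GW182 protein of microRNA silencing. AGO1 held 0 against 6 and 4. Of 11 listed genes from a list of messenger RNAs associated with FMRP in earlier work, 4 held FMRP sites, at 12.6 per 100. These were l(2)gl (6 against 27 and 22), CaMKII (6 against 17 and 14), Dscam1 (1 against 15 and 16) and Fmr1. The profilin gene chic, Cbl, Dap160, spen and stai leaned to Hrp48, with 5 of the 11 genes against the background of 16.6%.

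Genes of hnRNP and splicing factors held FMRP sites in 9 of 26 cases (34.6%, near the 38.5% of all genes), at 12.4 FMRP sites per 100 Hrp48 sites. They were led by sqd (7 against 24 and 24) and Rox8 (5 against 17 and 17), and 5 leaned to Hrp48, near the background of 16.6%, among them ps (0 against 17 and 12) and Rb97D (0 against 6 and 19). Heat shock and chaperone genes stood at 13.6 per 100 with 6 of 17 holding FMRP sites, mitochondrial ribosome and respiratory chain genes at 13.7 with 16 of 78, and proteasome genes at 17.6 with 4 of 25. No gene of these 4 groups leaned to FMRP, against 2.08% of all genes. Cytosolic ribosomal protein genes held FMRP sites in 34 of 69 cases, at 34.8 per 100, with RpL7 (4 against 1 and 1) leaning to FMRP and RpS27 (0 against 8 and 6) among 6 that leaned to Hrp48, against 16.6% of all genes.

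In the secretion and membrane traffic group 16 of 33 genes held FMRP sites, at 30.1 per 100. Of the 33 genes, 3 leaned to FMRP and 9 to Hrp48, against 2.08% and 16.6% of all genes. Those leaning to FMRP were Chc (7 against 2 and 4), the clathrin heavy chain, alphaCOP (6 against 2 and 3) and the Arf activator gene garz (10 against 4 and 7). The other coat genes of the list did not lean to FMRP. Among them zetaCOP (0 against 3 and 7) leaned to Hrp48, and betaCOP, gammaCOP and epsilonCOP held no FMRP site. Others held FMRP sites, such as beta'COP (2 against 2 and 0), deltaCOP (2 against 5 and 6) and Sec24AB (10 against 21 and 15). Those leaning to Hrp48 included the small GTPases Rab1, Rab5, Rab7, Rab11 and Sar1 and the dynamin gene shi (0 against 11 and 13). Metabolic enzymes matched the background ratio at 21.7 per 100, with 14 of 21 genes holding FMRP sites. There ACC, acetyl-CoA carboxylase, was at 5 against 4 and 2 and Sam-S at 6 against 38 and 32.

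Chromatin regulators stood at 19.9 per 100, with dom at 10 against 15 and 23 and Nipped-B at 2 against 55 and 21. TOR and insulin pathway genes stood at 16 per 100 with 5 of 20 leaning to Hrp48, against 16.6% of all genes, among them Pdk1 (0 against 12 and 10). Cell cycle genes stood at 26.2, with CycG at 8 against 29 and 27 and CycD (0 against 12 and 13) leaning to Hrp48.

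Where a gene was marked by both fusions, the FMRP sites more often lay toward the 5′ end. In the 463 genes with 3 or more exonic sites in each of the 3 libraries, positions were set from 0% at the most 5′ listed site to 100% at the most 3′, in the direction of transcription and over genomic distance with introns included. The median over genes of the mean FMRP position was 56.1%, against 64.9% and 65.8% in the Hrp48 libraries. The FMRP mean lay 5′ of both Hrp48 libraries in 252 genes (54.4%) and 3′ of both in 105 (22.7%). Hrp48 replicate 1 was the most 5′ of the 3 libraries in 105 genes (22.7%) and replicate 2 in 102 (22.0%). Per gene, FMRP differed from the Hrp48 mean by a median of -8.78 percentage points, and Hrp48 replicate 1 from replicate 2 by -1.23. Without regard to sign, the median difference was 12.8 and 13.8 points between FMRP and each Hrp48 library and 8.51 points between the Hrp48 libraries. Mean positions correlated with Pearson's r of 0.58 between the Hrp48 libraries and of 0.47 and 0.39 between FMRP and each.

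The FMRP sites lay 5′ of the Hrp48 mean by more than 20 points in 102 genes and 3′ by more than 20 points in 17. The largest shifts, named after their values were seen, were in Top1 on X, encoding topoisomerase 1, with mean positions of 14.3% for FMRP and 86.8% and 76.1% for Hrp48, and in Dp1 on 2R, with 14.9% against 83.1% and 73.0%. In Elf on 2L, the fly eRF3 translation termination factor, the positions were 14.7% against 69.3% and 66.7%. The opposite order was found in PI4KIIIalpha, with 77.3% against 23.7% and 36.8%, and in CG7518, with 67.2% against 41% and 41.6%. The spliceosomal genes Prp8 (46.4% against 65.9% and 64.0%) and l(3)72Ab (57.9% against 80.8% and 75.4%) followed the common order, while in poe, hyd and Dhc64C the FMRP mean was not 5′ of both Hrp48 libraries.

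In poe, hyd, Dhc64C, Not1 and faf the libraries covered overlapping stretches, with local differences in where their sites lay. In Dhc64C most FMRP sites lay between 11.084 and 14.338 kilobases from the most 5′ listed site, and so did most Hrp48 sites. FMRP sites in hyd and in the 3′ part of poe lay one after another, with few Hrp48 sites between them. In faf the strongest Hrp48 sites, up to 52.4% and 50%, stood near the 3′ end, where FMRP listed few. The strongest FMRP site of faf, at 41.7%, lay toward the 5′ side of the middle. In pum all 26 and 23 sites were from Hrp48.

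**Figure D2:**
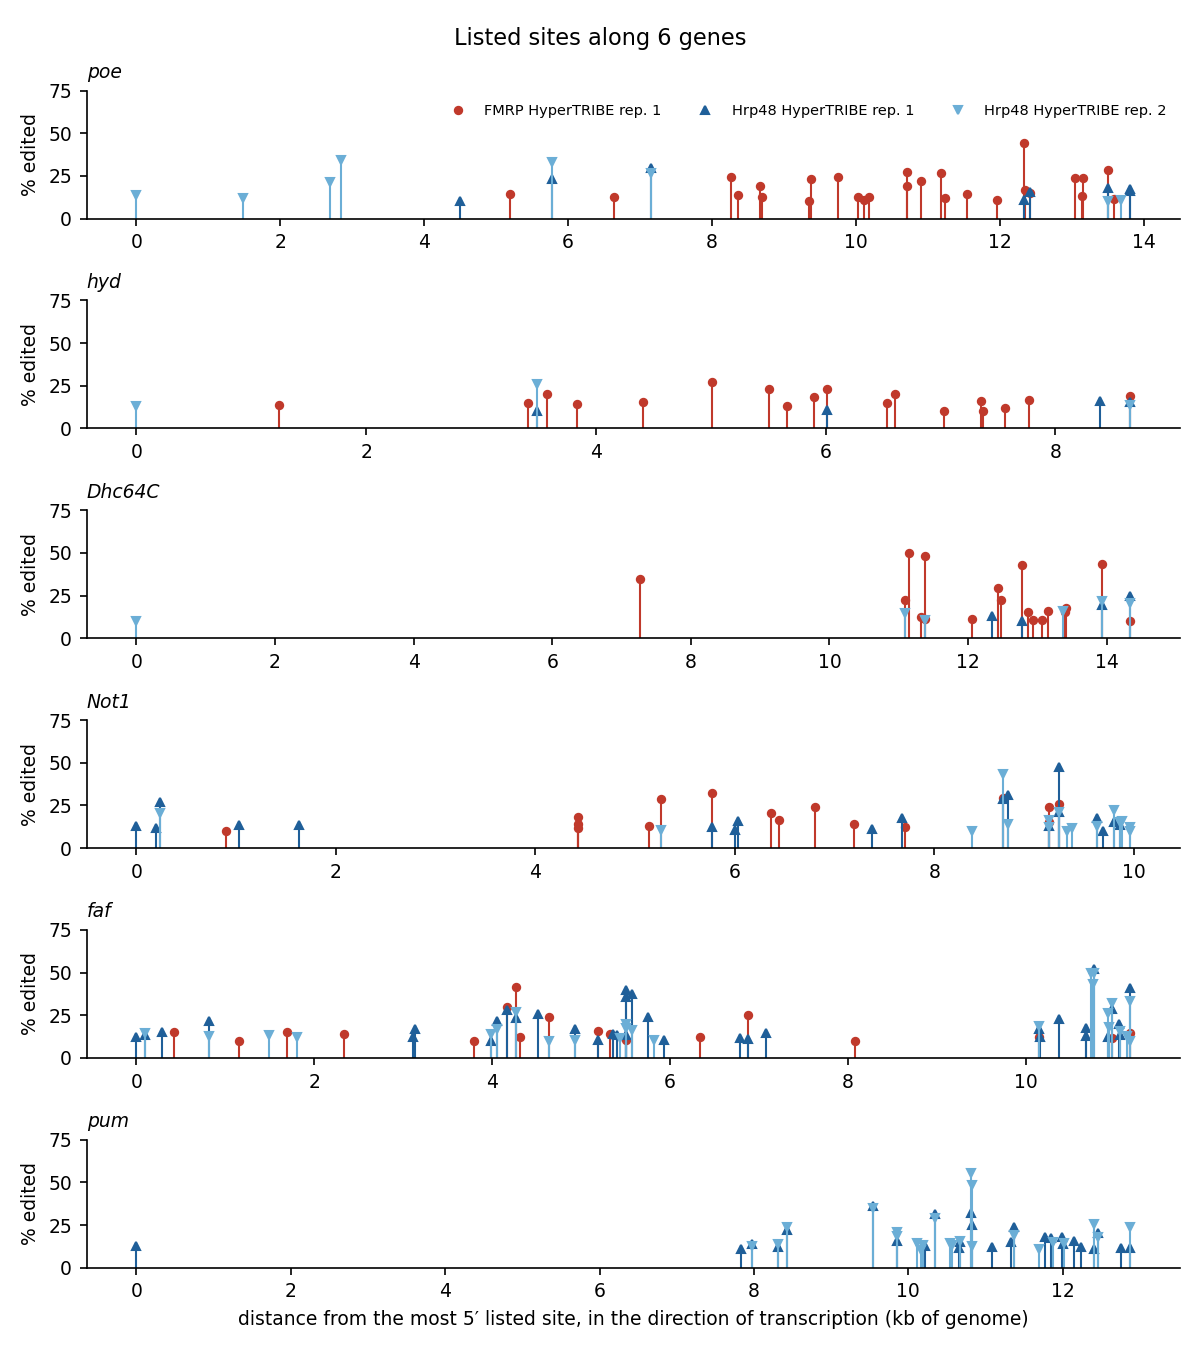
Listed sites along poe, hyd, Dhc64C, Not1, faf and pum, with the percent of reads edited on the y axis and the distance from the most 5′ listed site in kilobases of genome on the x axis; red circles are FMRP and blue triangles the 2 Hrp48 libraries. FMRP sites outnumber those of either Hrp48 library in poe (27 against 8 and 8), hyd (18 against 4 and 3) and Dhc64C (18 against 4 and 6), and pum has none.

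**Figure D3:**
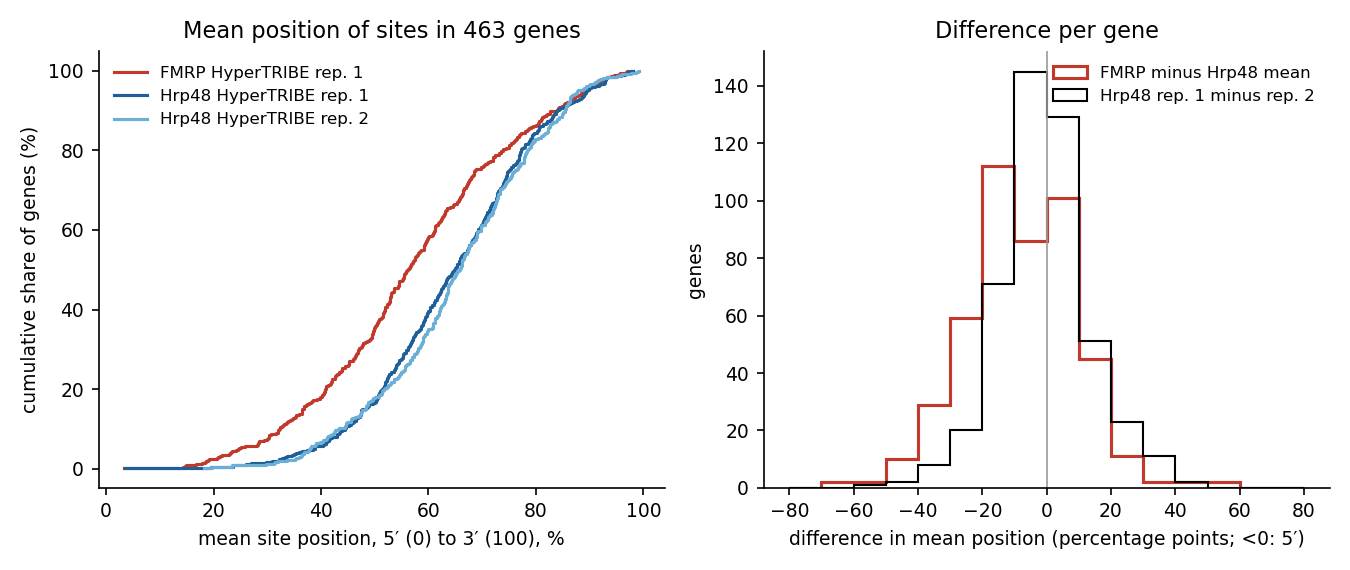
Left, cumulative share of the 463 genes by the mean position of their sites from 5′ (0%) to 3′ (100%) in each library; right, numbers of genes by the difference in mean position, for FMRP minus the Hrp48 mean (red) and for Hrp48 replicate 1 minus replicate 2 (black). The FMRP curve lies to the 5′ side over most of the range, with a median of 56.1% against 64.9% and 65.8%.

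At the level of single positions the overlap was smaller than by gene. Of the 4573 FMRP sites, 2112 were listed in both Hrp48 libraries (46.2%, Wilson 95% interval 44.7 to 47.6%). Hrp48 replicate 1 listed 55.5% of the FMRP sites and replicate 2 listed 60%, against 54.8% of replicate 1 sites in replicate 2 and 47.3% of replicate 2 sites in replicate 1. Neither Hrp48 library listed 1404 of the FMRP sites (30.7%, 29.4 to 32.1%). In the other direction, FMRP listed 19.7% (19 to 20.5%) of the 10706 sites of both Hrp48 libraries. With the Hrp48 libraries reduced to as many of their most edited sites as FMRP listed, the share of FMRP sites found in both was 17.8%. With the FMRP list kept whole, this share could only fall.

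The overlap rose with the editing level in each direction. FMRP listed 12.3% (11.5 to 13.2%) of the Hrp48 sites with mean editing of 10 to under 20%, 23.6% (22.1 to 25.2%) of those from 20 to under 30%, 34.1% (31.9 to 36.5%) of those from 30 to under 50% and 45.7% (40 to 51.4%) of those at 50% or more. Among sites with 50 or more reads in each Hrp48 library the last share was 55.9% (43.3 to 67.8%, 33 of 59 sites), and the rest of these strongly edited, well covered Hrp48 positions were not listed with FMRP. Of the FMRP sites from 10 to under 20%, neither Hrp48 library listed 37.4% (35.7 to 39.0%). For FMRP sites from 30 to under 50% that share was 4.97% (3.21 to 7.64%, 19 of 382 sites), and both Hrp48 libraries listed 74.3%.

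**Figure D4:**
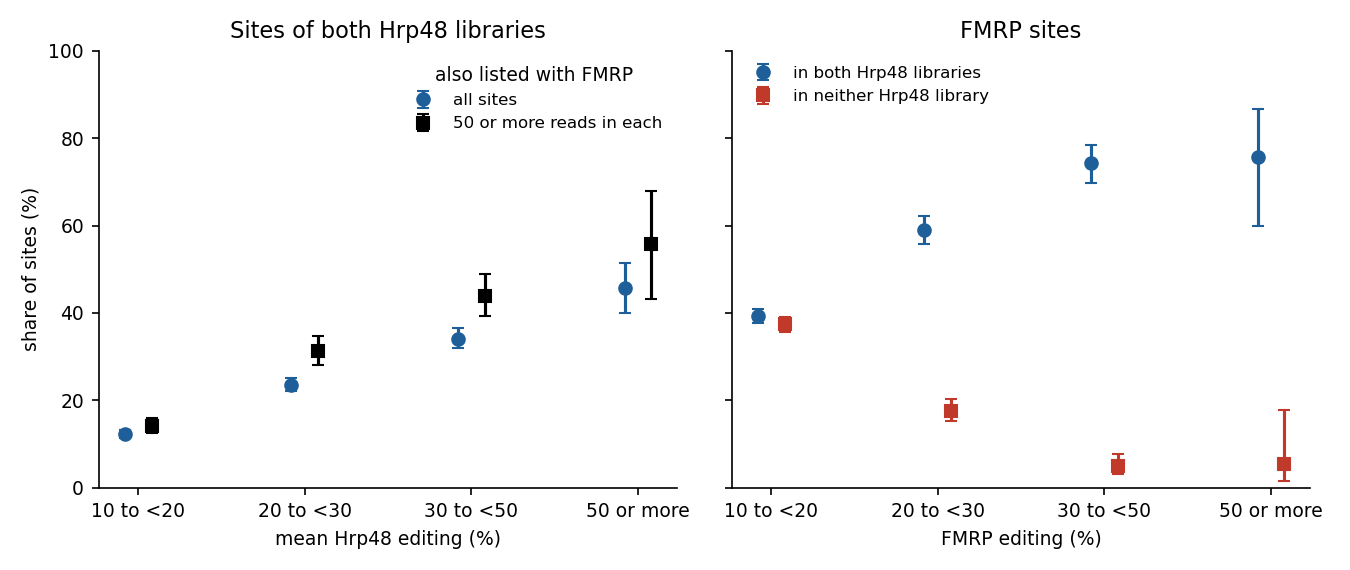
Left, share of the sites of both Hrp48 libraries that FMRP also listed, by mean Hrp48 editing, for all sites (circles) and those with 50 or more reads in each library (squares); right, share of FMRP sites listed in both or in neither Hrp48 library, by FMRP editing. Bars are Wilson 95% intervals. FMRP listed 12.3% of the least and 45.7% of the most edited Hrp48 sites.

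Sites found with FMRP but in neither Hrp48 library had low editing, with a median of 13% on 28 reads. The strongest with 30 or more reads was in l(3)72Ab (3L, 15956484), at 38.5% on 39 reads. Next came sites in the actin nucleator gene capu (2L, 3874603) at 36.7% on 30 reads, Lk6 (3R, 7580645) at 35.9% on 64 reads and kst (3L, 3364445) at 32.4% on 37 reads. In Lk6 the nearest Hrp48 sites, 142 and 99 bases away, had 78 and 64 reads, so that gene was covered there in the Hrp48 libraries. The site of Chc (X, 15723335) was at 31.6% on 76 reads, and the nearest Hrp48 sites, 966 bases away, had 81 and 86 reads. The other 5 were in Dhc64C at 29.4%, CG2691 at 28.2%, CG7518 at 27.5%, poe at 27.3% and CG32164 at 26.5%. All 10 sites were exonic. Over all 1404 such sites, 5.34% (4.28 to 6.64%) had a site of each Hrp48 library within 50 bases in the same gene, and 5.50% (5.04 to 6.01%) of the 8594 Hrp48 sites that FMRP did not list had an FMRP site within that distance.

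The last comparison was of editing levels at the 2112 positions, spread over 1276 genes, found in all 3 libraries. Median editing was 17.2% with FMRP and 25% and 23.5% with Hrp48, on median coverages of 37, 39 and 50 reads. FMRP was below the Hrp48 mean by a median of 6.01 percentage points per site (difference of -6.01), while Hrp48 replicate 1 was 1.24 points above replicate 2. FMRP was below both Hrp48 libraries at 1285 sites (60.8%) and above both at 413 (19.6%). The median difference was -4.74 without Hrp48 replicate 2 and -4.0 without replicate 1, where more sites entered. It was -16.5 with the Hrp48 lists reduced to their most edited sites, a selection that itself favours lower FMRP values. A lower percentage of edited reads cannot be split into fewer edited cells and less editing in each cell.

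Editing at shared positions was more alike between the Hrp48 libraries than between FMRP and either of them. Across the 2112 sites, editing in the Hrp48 replicates correlated with Pearson's r of 0.76 (Spearman's rho 0.71), and editing with FMRP correlated with that in the Hrp48 replicates with r of 0.31 and 0.34 (rho 0.30 and 0.31). At the 525 sites with 50 or more reads in every library, r was 0.86 between the Hrp48 replicates and 0.31 and 0.32 between FMRP and each. Read numbers at the 2112 sites correlated with r of 0.93 between the Hrp48 replicates and 0.90 and 0.94 between FMRP and each. These are descriptions across sites, which cluster in genes. The median absolute difference per site was 8.86 and 7.86 points between FMRP and each Hrp48 library and 5.28 points between the Hrp48 libraries.

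**Figure D5:**
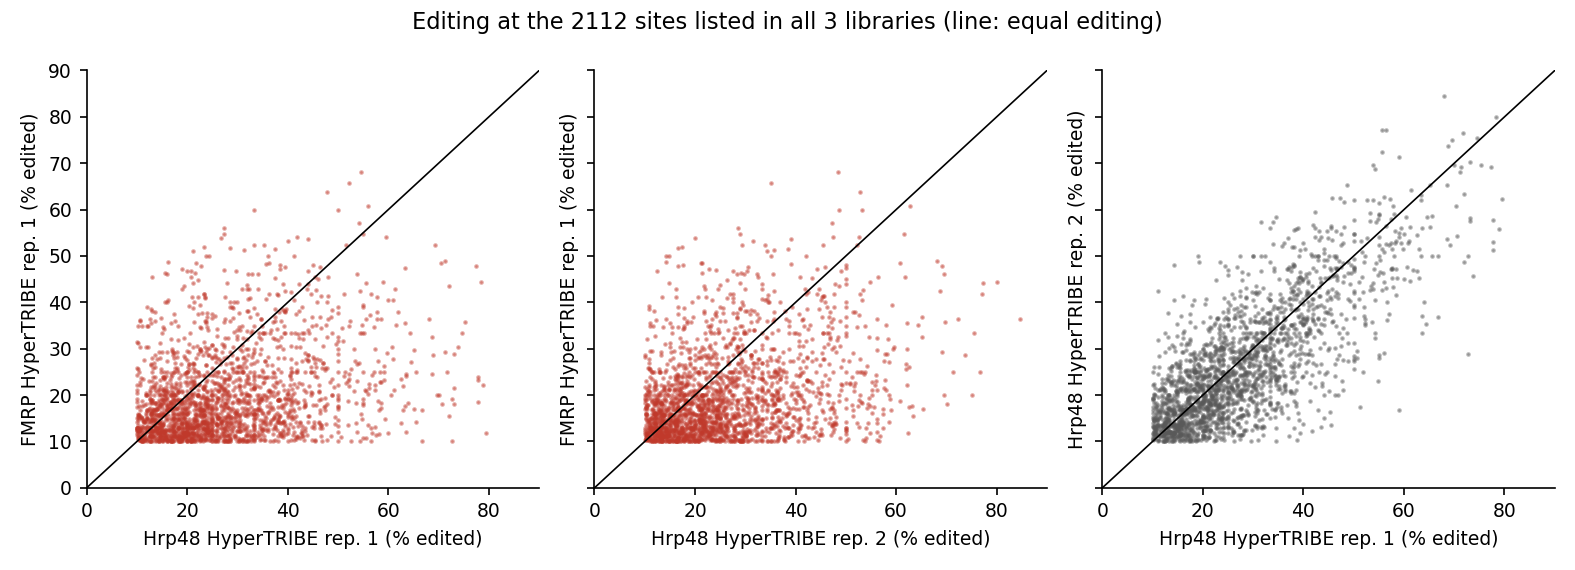
Percent of reads edited at the 2112 sites of all 3 libraries, for FMRP against each Hrp48 library (red) and for Hrp48 replicate 2 against replicate 1 (grey); the line marks equal editing. The Hrp48 replicates follow the line (r of 0.76), while FMRP values spread widely (r of 0.31 and 0.34) and lie mostly below it.

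FMRP lay at least 20 points above the Hrp48 mean at 39 of the 2112 sites (1.85%) and at least 20 points below it at 303 (14.3%). Among sites with 30 or more reads in every library, the largest FMRP excess was in CG7600 (3L, 11206102), edited at 48.8% with FMRP and at 16.2% and 14.3% with Hrp48. In Not3, a CCR4-NOT subunit gene (2R, 1548552), the values were 50% against 23.8% and 14.3%. In gry (3L, 3210480) they were 46.3% against 15.6% and 21.4%. In each of these genes the FMRP library stood apart from Hrp48 libraries that lay within 10 points of each other.

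The site of lig, encoding Lingerer (2R, 3959199), was at 38.6% with FMRP and at 12.7% and 10.8% with Hrp48. That of Vinc, encoding vinculin (X, 2110230), was at 54.7% against 27.4% and 29.0%. Sites of CG9153, CG7518, zip and LanA, which also leaned to FMRP by number, came next, with 47.1%, 44.1%, 41.2% and 39.3% in FMRP and means of 20.9% ± 2.60, 18.1% ± 4.47, 17.2% ± 5.30 and 15.7% ± 6.75 in Hrp48 (SD, n = 2). Vps35, a retromer subunit gene (2R, 18075005), was at 35.0% against 11.6% ± 0.714.

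The reverse differences were larger. In Rip11, encoding a Rab11 effector (X, 18530101), editing was 11.8% with FMRP and 79.5% and 62.3% with Hrp48. In Pgi, phosphoglucose isomerase (2R, 4798624), it was 18% against 73.1% and 70.2%, and in CG8602 (3L, 7319778) 15.4% against 72% and 63.4%. Unc-76 (X, 1987108) was at 10% against 66.7% and 50%. Then came CG31918 (17.1% against 65.1% and 65.4%) and the apoptosis inhibitor gene Iap2 (17.6% against 63.4% and 63.1%).

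The last 4 were CG10077, an RNA helicase gene (18% against 70.6% and 54.4%), Srp54k of the signal recognition particle (23.3% against 77.8% and 57.7%), Trp1 of the translocation machinery (10.8% against 55.0% and 54.1%) and Ald, aldolase (3R, 22080843; 10% against 52.6% and 53.8%). These 20 sites were chosen for their differences, which are a description; all of them were exonic.

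By gene group, the level at shared positions did not always follow the number of sites. In translation factor genes the median difference at 22 sites was 0.524 points, with FMRP above both Hrp48 libraries at 10 and below both at 8. In large ubiquitin ligases and deubiquitinases it was -2.96 points at 41 sites, with 15 above and 21 below, and in giant cytoskeletal genes -4.04 points at 21 sites, with 6 above and 14 below. In metabolic enzymes it was -11.2 points at 21 sites, none above and 17 below, and in hnRNP and splicing genes -9.71 points at 16 sites, 1 above and 12 below. In ribosomal protein genes it was -6.52 points at 43 sites, 4 above and 33 below. The values over all 2112 sites, -6.01 points with 19.6% above and 60.8% below, stand between these groups.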

How the data were processed

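The deposited files hold 1 edited site per line, with read counts by base and the percent of reads edited, which was recomputed here as edited reads over all reads. Their coverage is the number of reads at the site. Per the submitters' processing notes, TopHat2 2.1.1, Picard 2.8.2 and the build dm3 were used, without stated roles. Per the file headers, the authors applied a threshold, whose settings the sources used here do not give. Positions, genes and exon marks are those of the files; whether genes were assigned by strand is not stated, so sites of overlapping genes are uncertain. A second set of deposited base counts served only for the strand. The highest coverage at a site was between 135 and 149 reads.

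Sites listed by either deaminase-alone library (464 positions) were removed. Groups came from sample titles. Of 5144 gene names 5077 matched the reference names. The genes and lists were chosen with earlier results of these data known. Named genes were the 10 with most FMRP sites, the 10 with the largest FMRP excess, the 10 without FMRP sites with most sites of both Hrp48 libraries, the construct genes, and in each list the members with most FMRP sites and, among those without, most Hrp48 sites; a few other members were named after their values were seen; named sites were the 10 extremes of each kind at 30 or more reads. Tables were computed with numpy 2.4.6, pandas 2.3.3 and scipy 1.17.1 under Python 3.11.15, with plots from matplotlib 3.10.9, after a test on simulated tables.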

Additional observations from a re-analysis of the deposited data

How the results depend on the processing

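FMRP listed fewer sites, edited shared sites less and lay 5′ more often under every setting that gave a value. With the Hrp48 lists reduced to their most edited sites, the selection itself favours lower FMRP editing. That setting is therefore no check of the editing difference. It kept the FMRP list whole, so the gene and site shares and the Hrp48-leaning count could only fall. The FMRP-leaning count could only rise, so the setting is no even match of list size for these values either. More genes leaned to Hrp48 than to FMRP except with the Hrp48 lists reduced in this way. With 50 or more reads per site, FMRP listed 0.169 times the mean Hrp48 number of sites, 58.1% of FMRP sites were in both Hrp48 libraries, the median editing difference was -6.9 points, FMRP was above both at 15% of shared sites, 14 genes leaned to FMRP and 259 to Hrp48, and FMRP was most 5′ in 60.3% of genes. With 20% or more edited, the ratio of sites was 0.185, the gene share 73.7%, FMRP above both at 21.6%, 41 and 383 genes leaned, and 62.3% were most 5′. With as many of the most edited Hrp48 sites as FMRP sites, the gene and site shares were 49.5% and 17.8%, the difference -16.5 points, FMRP above both at 8.74%, 441 and 95 genes leaned, and 64.3% were most 5′. Leaving out genes of the deaminase alone gave 53.3% most 5′, rank in place of distance (chosen after seeing the data) 59.8%, and a match within 100 bases a site share of 54.9%. The cause of these changes was not tested.

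Leaving out each Hrp48 library gave a ratio of 0.202 to 0.234, gene shares of 88.2 to 96.2%, site shares of 55.5 to 60%, differences of -4.74 to -4.0 points, FMRP above at 31.3 to 33.6%, 143 to 169 and 1098 to 1365 leaning genes, and 64.3 to 65.2% most 5′; with 1 library left, a site or gene had to pass against that library alone. With 50 or more reads, the FMRP excess over the Hrp48 mean turned to -2.0 sites in CG7518, -0.5 in hyd, -3.5 in CG9153 and -0.5 in Prp8. No paired analysis was possible because FMRP had 1 library. The planned description of protein length was not run, since no protein lengths were used here.

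The files hold no depth outside listed sites, so an unlisted position cannot be told from an uncovered one, and 1 FMRP library gives no spread for that construct.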

Other observations

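In 38 genes the FMRP library listed sites and neither Hrp48 library listed any, and most of these genes had 1 site each. Hel89B led with 6 sites at a median of 12.7% on 35 reads, followed by CG14803 with 4 (12.1% on 26 reads) and by CG16989 and Grip84 with 3 each. Grip84 encodes a gamma-tubulin ring protein. The next, with 2 sites each, included nonC, the kinase of nonsense-mediated decay (17.5% on 20 reads), and the transcription machinery genes MED6 (14.9%) and Taf2 (14%).

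Aminoacyl-tRNA synthetase genes, a group chosen after its leading gene was seen, held 61.2 FMRP sites per 100 Hrp48 sites, against 21.7 over all genes, and 13 of 17 genes held FMRP sites. The leading gene Aats-glupro itself held 11 of the group's 37 FMRP sites, so the ratio counts the gene that prompted the choice. Besides Aats-glupro, Aats-ile held 6 against 4 and 6, and Aats-asp 1 against 10 and 6. At their 17 shared sites the median editing difference was 5.69 points in favour of FMRP, with FMRP above both Hrp48 libraries at 9 and below both at 6. Core spliceosome genes, chosen in the same way, stood at 98.8 per 100 with 8 of 12 genes holding FMRP sites, where Prp8 and l(3)72Ab held 12 and 14 of the 40 FMRP sites.

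By chromosome arm, 2R held 24.2% of the FMRP sites and 21.9% and 22.4% of the Hrp48 sites, and chromosome 4 held 1.14% against 2.54% and 1.92%. The X held 13.7% of the FMRP sites and 13.3% and 14.4% of the Hrp48 sites.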
